A study of Mus musculus with 12 samples.

Results

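The genes described here are 10 genes of stellate cells and of the extracellular matrix: Col1a1, Col1a2, Col3a1, Col4a1, Dcn, Lrat, Des, Timp1, Ccn1 (also named Cyr61) and Ccn2 (also named Ctgf). They were chosen by name, through the RefSeq accession of each probe, and no value entered the rule. Earlier results of these data were known when they were chosen. All 10 were on the array, with 11 probes, and all 10 passed a filter that kept probes called well above background on at least 3 of 12 arrays. They make up 10 of the 17002 named genes that passed it. Whole-liver RNA came from male wild-type C57BL/6 mice, 6 weeks old, at 0, 1.5, 12 and 24 h after partial hepatectomy, the surgical removal of 2/3 of the liver. Each time point had 3 arrays, and the labels give 3 mice per time point. Sham-operated mice are not among the 12 samples, so effects of the operation itself and of the lost tissue cannot be told apart. No unoperated group was sampled at 12 or 24 h, so any effect of time of day cannot be told apart from these. The RNA is from bulk tissue, so fewer cells of a type and less RNA per cell cannot be told apart either.

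Hepatic stellate cells lie in the space between hepatocytes and the sinusoidal endothelium, where they store vitamin A as retinyl esters and make much of the liver's matrix. On activation they lose their retinoid droplets and take on a contractile, collagen-producing state, and they are a source of hepatocyte growth factor in regeneration. Lrat esterifies retinol for storage and desmin (Des) is an intermediate filament of these cells. Col1a1, Col1a2 and Col3a1 encode chains of the fibrillar collagens I and III. Col4a1 encodes a chain of collagen IV of basement membranes, and Dcn encodes decorin, a small proteoglycan that binds collagen fibrils. Timp1 inhibits matrix metalloproteinases. Ccn1 and Ccn2 encode secreted matricellular proteins and are known targets of the YAP and TEAD transcription regulators. The genes are not specific to stellate cells: endothelial cells also make collagen IV, and hepatocytes can express Timp1, Ccn1 and Ccn2.

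Promoter sequence, defined as the 250 bases before the annotated transcription start, was matched by symbol in RefSeq (GRCm38.p6) for 7 of the 10 genes. 4 are shown 5′ to 3′ on the strand of the gene, because Timp1, Col4a1 and Lrat were 3 of the 4 genes called at 12 h against 0 h and Ccn1 is a textbook TEAD target. Capitals mark motif matches. They lie at chrX:20869916-20870165 (+ strand) for Timp1, chr8:11312827-11313076 (- strand) for Col4a1, chr3:82903975-82904224 (- strand) for Lrat and chr3:145649986-145650235 (- strand) for Ccn1.
Timp1: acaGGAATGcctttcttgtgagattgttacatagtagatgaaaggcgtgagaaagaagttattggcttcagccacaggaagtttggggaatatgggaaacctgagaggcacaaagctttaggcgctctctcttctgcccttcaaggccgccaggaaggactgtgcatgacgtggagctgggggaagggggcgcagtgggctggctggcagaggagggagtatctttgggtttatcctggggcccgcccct
Col4a1: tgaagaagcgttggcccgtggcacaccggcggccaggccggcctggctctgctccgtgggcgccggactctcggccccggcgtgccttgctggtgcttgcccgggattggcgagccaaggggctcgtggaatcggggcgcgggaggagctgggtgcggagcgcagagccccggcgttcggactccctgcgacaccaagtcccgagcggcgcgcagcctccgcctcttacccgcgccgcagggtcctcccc
Lrat: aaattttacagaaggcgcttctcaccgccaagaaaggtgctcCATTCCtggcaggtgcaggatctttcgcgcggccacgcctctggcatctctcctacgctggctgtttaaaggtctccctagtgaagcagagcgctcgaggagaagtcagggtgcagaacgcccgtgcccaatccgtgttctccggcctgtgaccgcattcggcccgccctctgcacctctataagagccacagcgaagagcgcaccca
Ccn1: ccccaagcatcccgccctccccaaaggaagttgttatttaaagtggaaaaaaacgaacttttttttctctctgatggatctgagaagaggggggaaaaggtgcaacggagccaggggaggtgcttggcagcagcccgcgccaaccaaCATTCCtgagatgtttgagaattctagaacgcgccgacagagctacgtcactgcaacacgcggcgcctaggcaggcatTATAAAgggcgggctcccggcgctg
The motifs searched on both strands were GGAATG (bound by TEAD factors), TGANTCA (AP-1), TTCNNNGAA (STAT), CAGAC (SMAD), TATAAA (the TATA box) and the CArG box of SRF. The TEAD letters were in the windows of Timp1 (247 to 242 bases before the start), Lrat (208 to 203), Ccn1 (103 to 98) and Col3a1 (168 to 163), and in 12.6% of 32851 promoters of the same length. TATAAA lay 25 to 20 bases before the start of Ccn1 and 117 to 112 before that of Col3a1, against 12.4% of all promoters. The SMAD letters were found in Col1a2 and, at 2 places, in Col3a1, and in 42.2% of all promoters. No motif was found for Col4a1 and Des, and none of the matches overlapped another. AP-1, STAT and CArG letters were in none of the 7 windows and in 6.75%, 7.02% and 1.47% of all promoters. A match is a description of the letters, not of binding.

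Values are log2 of the processed signal less that of the array's 75th percentile, so that 0 stands for this percentile. A gene is compared with itself over time, since the signal of different probes is not on a common scale. The array 24 h replicate 2 stood apart. Its 75th percentile was 6210, against 443 to 599 on the other 11 arrays. It was the only array with its scan date, and it correlated with its group at r = 0.906 and 0.912 over probes. The main tests of the 10 genes are therefore given with all 12 arrays and without this array. So are the counts of the further lists at 12 and 24 h against 0 h. Arrays with the same scan date in the file headers are taken here as arrays of the same slide. The 1.5 h replicate 1 array shared slide 1 with all the 0 h arrays and correlated with the others of its group at r of 0.972 to 0.973. Slide 2 held the other 1.5 h arrays and 12 h replicates 1 and 2, and slide 3 held 12 h replicate 3 with 24 h replicates 1 and 3. Spots well above background made up 82.0% to 85.4% on the arrays of slide 2 and 62.8% to 72.4% on the others. Counts of arrays well above background therefore depend on the slide as well as on the time point.

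The largest movement among the 10 genes was that of Timp1, which rose 15.7-fold at 12 h and 21.7-fold at 24 h against 0 h. At 12 h Ccn2 (2.64-fold) and Col4a1 (2.30-fold) were also higher and Lrat was lower (3.75-fold). At 24 h Dcn was higher (2.94-fold). Lrat and Ccn2 moved back between 12 and 24 h: Lrat was higher and Ccn2 lower at 24 h than at 12 h. Of the fibrillar collagen genes, Col1a2 passed the threshold in no comparison, and Col1a1 and Col3a1 passed at 12 h, lower than at 0 h, once 24 h replicate 2 was left out.

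**Figure D1:**
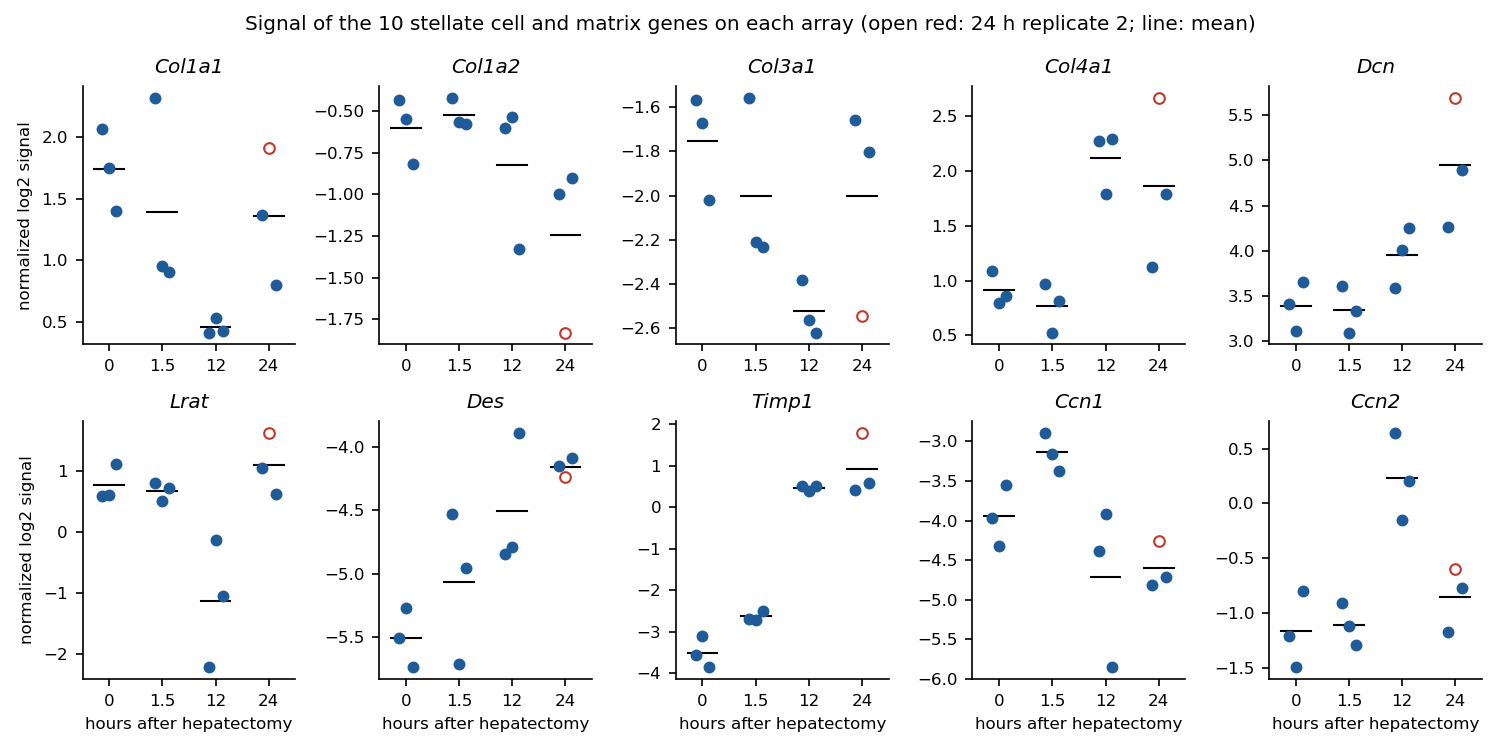
Normalized log2 signal (vertical axes, each with its own range) of the 10 genes on each of the 12 arrays by hours after hepatectomy (horizontal axes). Points are arrays, lines are means of 3 arrays, and the open red point is 24 h replicate 2. All arrays at 12 and 24 h lay above all arrays at 0 and 1.5 h for Timp1, and the 3 arrays at 12 h lay below all others for Lrat.

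Differences were tested in 1 limma fit over all 31168 kept probes, with Benjamini-Hochberg adjustment and a threshold of 0.05. At 1.5 h against 0 h none of the 10 genes passed (smallest adjusted p = 0.74), while 0.0225% of probes did. At an unadjusted p under 0.05 there were 1999 probes and 1 of the 10 genes. Without 24 h replicate 2, 0.568% of probes passed and again none of the 10 genes. Of the 10 genes, 4 passed at 12 h against 0 h, 3 higher and 1 lower, beside 15.3% of probes, 6.93% higher and 8.39% lower. The fit without 24 h replicate 2 called 7 of the 10, 4 higher and 3 lower, and 49% of probes, 32.2% higher and 16.8% lower. Against 0 h, 2 of the 10 passed at 24 h, both higher, beside 5.45% of probes, 2.83% higher and 2.62% lower. Without that array 3 of the 10 and 17% of probes did. At 12 h against 1.5 h, 4 of the 10 and 8.35% of probes passed (5 of the 10 and 20.2% without it), and at 24 h against 12 h, 2 of the 10 and 12.8% of probes (2 and 15.8% without it). The 3 arrays of each group did not overlap for 2, 7 and 5 of the 10 genes at 1.5, 12 and 24 h against 0 h, beside 25.7%, 61.3% and 27% of probes. The median log2 fold change of the 10 genes was 0.01, 0.17 and 0.32 at 1.5, 12 and 24 h against 0 h. For all probes it was 0.16, 0.41 and -0.15, and for coding probes 0.07, 0.24 and -0.06. The 3 comparisons against 0 h share their 0 h arrays, so their values are given side by side.

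**Figure D2:**
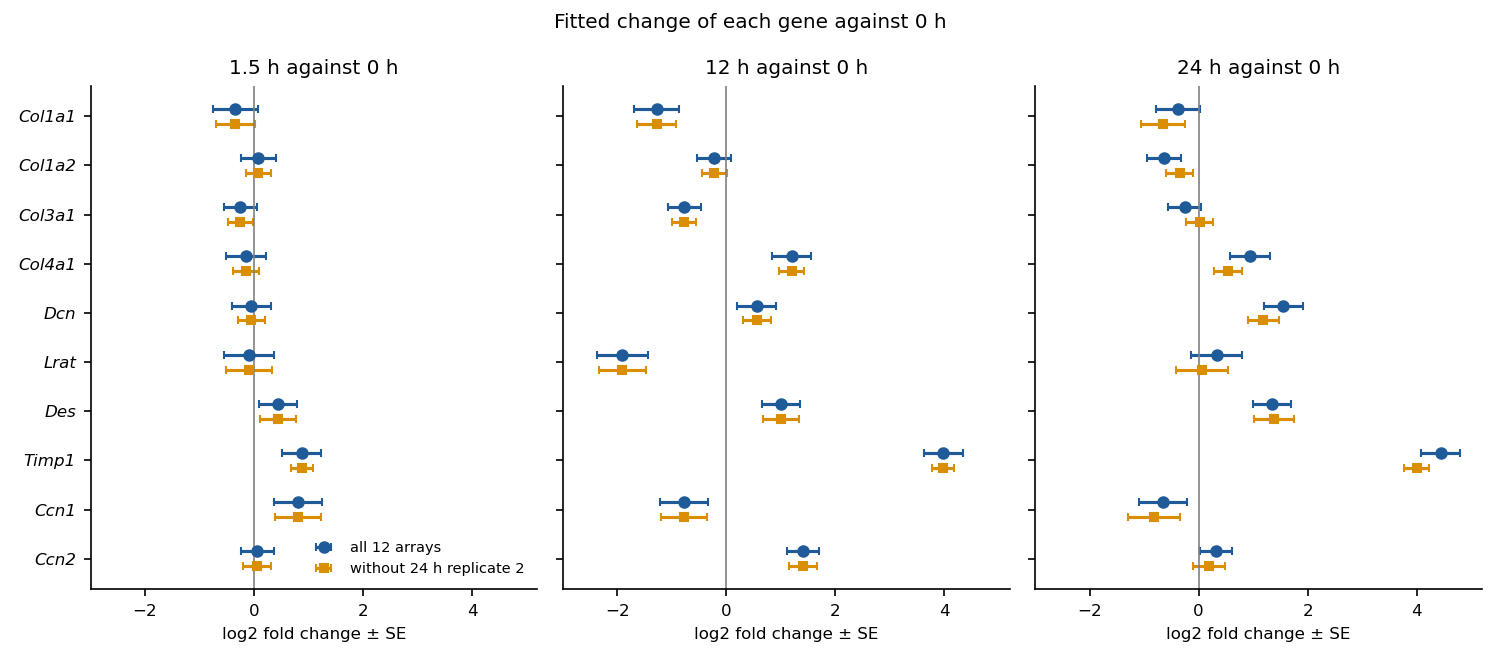
Log2 fold change ± SE (horizontal axes) of each gene at 1.5, 12 and 24 h against 0 h, from the fit of all 12 arrays (blue circles) and without 24 h replicate 2 (orange squares). Timp1 stood at 3.98 at 12 h and 4.44 at 24 h, Lrat at -1.91 at 12 h and 0.33 at 24 h.

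Lrat, the enzyme that makes the stored retinyl esters, read 0.59, 0.61 and 1.12 at 0 h, 0.80, 0.52 and 0.72 at 1.5 h, -2.22, -0.13 and -1.04 at 12 h, and 1.05, 1.64 and 0.63 at 24 h. The 12 h arrays were the lowest 3 of the 12 and also the most spread, and the other time points overlapped. Lrat was lower at 12 h than at 0 h by a log2 fold change of -1.91 ± 0.47 (adjusted p = 0.0202, and 0.00626 without 24 h replicate 2). It was higher at 24 h than at 12 h, by 2.24 ± 0.47 (4.72-fold, adjusted p = 0.0189; 1.97 and adjusted p = 0.0234 without 24 h replicate 2). Between 24 h and 0 h the difference was 0.33 ± 0.47 (adjusted p = 0.715). Within slide 2 the 12 h arrays were lower than the 1.5 h arrays by a difference of -1.80, and within slide 3 the 24 h arrays were 1.88 higher than the 12 h array. The call at 12 h against 0 h ended when any of the 0 h arrays was left out (adjusted p = 0.0565, 0.0542 and 0.0809 for replicates 1, 2 and 3), and likewise for 12 h replicate 1 (0.0643) and 3 (0.0512). It also ended under normexp background correction (-1.16, adjusted p = 0.117) and with the slide as a fixed or random block (-1.77 and -1.73, adjusted p = 0.302 and 0.163). The call at 24 h against 12 h ended without 12 h replicate 1 (adjusted p = 0.0714), under normexp (0.0808), with the slide as a fixed block (0.136) and with only the 2 groups fitted (0.197).

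Des was near the detection limit. None of the 0 h arrays called its probe well above background, against all 3 at 1.5 h, 2 at 12 h (not replicate 3) and all 3 at 24 h. These calls differ by slide: the probe was called at -5.71 on slide 2 (1.5 h replicate 2) and not at -5.27 on slide 1 (0 h replicate 2). Its signals were -5.51, -5.27 and -5.74 at 0 h, -4.53, -5.71 and -4.96 at 1.5 h, -4.85, -4.79 and -3.88 at 12 h, and -4.15, -4.24 and -4.09 at 24 h. The arrays at 12 and 24 h all lay above those at 0 h. The 0 h group gives only a bound: the 24 h mean of Des lay 1.65-fold above the mean of the lowest signals called well above background on the 0 h arrays. This bound carries no error. No bound is given for 12 h, where the highest of the 3 signals was not called well above background. With all 12 arrays neither 12 h nor 24 h passed (adjusted p = 0.0801 and 0.0514). Both did without 24 h replicate 2 (0.0318 and 0.0311). The 24 h call was also made when 12 h replicate 3 (0.0393), 1.5 h replicate 1 (0.0481) or 1.5 h replicate 2 (0.0463) was left out. Under normexp background correction the 24 h difference turned to -0.13.

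The fibrillar collagen genes were at their lowest mean at 12 h for Col1a1 and Col3a1. Col1a1 read 2.06, 1.75 and 1.40 at 0 h, 2.32, 0.96 and 0.90 at 1.5 h, 0.42, 0.54 and 0.43 at 12 h, and 1.36, 1.91 and 0.80 at 24 h. Its 12 h arrays lay close together and below every other array. The 1.5 h arrays split by slide: replicate 1, on the slide of the 0 h arrays, was the highest of all 12, and the other two, on slide 2, were below all 0 h arrays. The log2 fold change of Col1a1 at 12 h against 0 h was -1.28 ± 0.41 (adjusted p = 0.0587), and -1.28 ± 0.36 (adjusted p = 0.0164) without 24 h replicate 2. It also passed without 1.5 h replicate 1 (0.0245). Within slide 2 the 12 h arrays were lower than the 1.5 h arrays by a difference of -0.45. The call at 12 h against 0 h was made in 7 of 13 other settings, among them quantile normalization (adjusted p = 0.0417), the authors' values (0.025), array weights (0.00118) and a fit of the 2 groups alone (0.00417). With the slide as a fixed block the difference was 0.13 (adjusted p = 0.898), and with it as a random block -0.07 (0.953). No slide holds both 0 h and 12 h arrays. The fixed block therefore links them through the 1.5 h arrays. On slide 1 this link is 1.5 h replicate 1 alone, where Col1a1 was 0.58 above the 0 h arrays.

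Col3a1 followed a like course, with -1.57, -1.67 and -2.02 at 0 h, -1.56, -2.21 and -2.23 at 1.5 h, -2.38, -2.56 and -2.62 at 12 h, and -1.66, -2.54 and -1.80 at 24 h. The 12 h arrays lay below those of 0 and 1.5 h and overlapped with 24 h replicate 2. Its log2 fold change at 12 h against 0 h was -0.77 ± 0.30 (adjusted p = 0.110), and the gene passed without 24 h replicate 2 (adjusted p = 0.0177). It was also called in 5 of 13 other settings, among them quantile normalization (-1.06, adjusted p = 0.0162), the authors' values (-1.06, 0.00865), array weights (0.00418) and a fit of the 2 groups alone (0.0162). With the slide as a fixed block it was -0.06, and -0.07 under normexp. Col1a2 gave -0.44, -0.55 and -0.82 at 0 h, -0.42, -0.56 and -0.58 at 1.5 h, -0.60, -0.54 and -1.32 at 12 h, and -0.99, -1.83 and -0.90 at 24 h. Its 24 h arrays were below all 0 h arrays, by a log2 fold change of -0.64 ± 0.31 (adjusted p = 0.275) and -0.35 ± 0.25 (adjusted p = 0.375) without 24 h replicate 2. None of the 3 fibrillar collagen genes passed at 24 h against 0 h.

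Col4a1, the basement membrane chain, was 1.09, 0.80 and 0.86 at 0 h, 0.96, 0.53 and 0.82 at 1.5 h, 2.27, 1.79 and 2.29 at 12 h, and 1.13, 2.67 and 1.79 at 24 h. All arrays at 12 h, and all at 24 h, lay above all of those at 0 and 1.5 h. The log2 fold change was 1.20 ± 0.36 at 12 h against 0 h (adjusted p = 0.0458, and 0.00305 without 24 h replicate 2) and 1.35 ± 0.36 at 12 h against 1.5 h (adjusted p = 0.0420). Within slide 2 the 12 h arrays were 1.36 above the 1.5 h arrays. The difference between 24 h and 0 h was 0.94 ± 0.36 (adjusted p = 0.161), or 0.54 ± 0.26 (adjusted p = 0.177) without 24 h replicate 2, the highest of the 12 arrays for this gene. The 12 h call against 0 h was kept without 24 h replicate 1 (adjusted p = 0.0234) or 2, and lost without any of the other 10 arrays (adjusted p from 0.0536 to 0.142), under normexp (0.86, 0.334), with the slide as a fixed block (1.41, 0.103) and with no filter (0.0621). The call against 1.5 h was likewise kept without 24 h replicate 1 or 2 and lost without any of the other 10 arrays (adjusted p from 0.0532 to 0.152).

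Dcn, whose product decorates collagen fibrils, had its highest values at 24 h. It read 3.42, 3.11 and 3.66 at 0 h, 3.61, 3.10 and 3.34 at 1.5 h, 3.59, 4.02 and 4.26 at 12 h, and 4.27, 5.69 and 4.90 at 24 h. The 24 h arrays were the highest 3 of the 12, with 24 h replicate 1 hardly above 12 h replicate 3, and the 12 h arrays overlapped with those at 0 and 1.5 h. Dcn had a log2 fold change at 24 h against 0 h of 1.56 ± 0.36 (adjusted p = 0.0332), and 1.19 ± 0.29, or 2.27-fold, without 24 h replicate 2 (adjusted p = 0.0208). Its difference between 12 h and 0 h was 0.56 ± 0.36 (adjusted p = 0.293). Within slide 3 the 24 h arrays were 0.32 above the 12 h array. The 24 h call ended when any of the 0 h arrays was left out (adjusted p = 0.12, 0.138 and 0.0678 for replicates 1, 2 and 3), and likewise for 24 h replicate 3 (0.0676), 12 h replicate 2 (0.0509), 1.5 h replicate 2 (0.0521) and 1.5 h replicate 3 (0.0573). It also ended under normexp (1.69, 0.199), with the slide as a fixed or random block (1.13 and 1.35, 0.487 and 0.25) and with only the 2 groups fitted (0.192).

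Timp1, the metalloproteinase inhibitor, had the clearest course. Its brighter probe read -3.56, -3.10 and -3.86 at 0 h, -2.68, -2.71 and -2.51 at 1.5 h, 0.51, 0.39 and 0.51 at 12 h, and 0.41, 1.80 and 0.58 at 24 h. The 4 time points formed 3 steps: the 1.5 h arrays all lay above the 0 h arrays, and the 12 and 24 h arrays all lay above both and overlapped with each other. At 1.5 h against 0 h the log2 fold change was 0.88 ± 0.36 (1.83-fold, adjusted p = 0.74, and 0.0839 without 24 h replicate 2). It was 3.98 ± 0.36 at 12 h against 0 h (adjusted p = 0.000135) and 4.44 ± 0.36 at 24 h against 0 h (adjusted p = 0.000176). Without 24 h replicate 2, the highest array, the 24 h value was 4.00 ± 0.23, or 16.1-fold, and 24 h and 12 h differed by 0.03 ± 0.23 (adjusted p = 0.94). Within slide 2 the 12 h arrays were 3.06 above the 1.5 h arrays, within slide 1 the 1.5 h array was 0.83 above the 0 h arrays, and within slide 3 the 24 h arrays differed from the 12 h array by -0.01. The second probe gave 4.09 at 12 h and 4.45 at 24 h against 0 h. Both calls were made without any single array (adjusted p from 3.62e-06 to 0.00157 at 12 h and from 3.75e-05 to 0.00184 at 24 h) and in each of 13 other settings. Their size was smallest under normexp, at 2.73 and 3.32 on the log2 scale.

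Ccn2 and Ccn1, the matricellular pair, did not move together. Ccn2 read -1.21, -1.49 and -0.79 at 0 h, -0.91, -1.11 and -1.29 at 1.5 h, 0.65, -0.15 and 0.21 at 12 h, and -1.17, -0.60 and -0.77 at 24 h. The 12 h arrays were the highest 3 of the 12, and the other time points overlapped. Against 0 h the log2 fold change at 12 h was 1.40 ± 0.30 (adjusted p = 0.00992), and 24 h was lower than 12 h by a value of -1.08 ± 0.30 (2.12-fold lower, adjusted p = 0.0410). These were 1.40 (adjusted p = 0.00238) and -1.21 (adjusted p = 0.022) without 24 h replicate 2. Within slide 2 the 12 h arrays were 1.45 above the 1.5 h arrays, and within slide 3 the 24 h arrays differed from the 12 h array by -1.18. The 12 h call against 0 h ended without 0 h replicate 2 (adjusted p = 0.0507) or 12 h replicate 1 (0.0502), under normexp (0.96, 0.139) and with the slide as a fixed block (1.71, 0.0966). The 24 h call against 12 h was kept without 1.5 h replicate 1 (0.0459), 24 h replicate 2 or 24 h replicate 3 (0.0362) and lost without any of the other 9 arrays (adjusted p from 0.0572 to 0.158). It was also lost under normexp (0.0808), with the slide as a fixed block (0.102) and with only the 2 groups fitted (0.21).

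Ccn1 read -3.97, -4.32 and -3.54 at 0 h, -2.89, -3.16 and -3.37 at 1.5 h, -4.38, -3.92 and -5.85 at 12 h, and -4.81, -4.26 and -4.71 at 24 h. The 1.5 h arrays were the highest 3 of the 12, and the lowest, 12 h replicate 3, was not called well above background. The log2 fold change was 0.80 ± 0.44 at 1.5 h against 0 h (1.75-fold, adjusted p = 0.78, and 0.267 without 24 h replicate 2) and -0.77 ± 0.44 at 12 h against 0 h (adjusted p = 0.243). At 12 h against 1.5 h it was -1.58 ± 0.44 (adjusted p = 0.0539), which passed without 24 h replicate 2 (0.0248) or 12 h replicate 2 (0.029), and which turned to 0.40 under normexp. Within slide 1 the 1.5 h array was 1.05 above the 0 h arrays, and within slide 2 the 12 h arrays were lower than the 1.5 h arrays by a difference of -0.88.

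**Figure D3:**
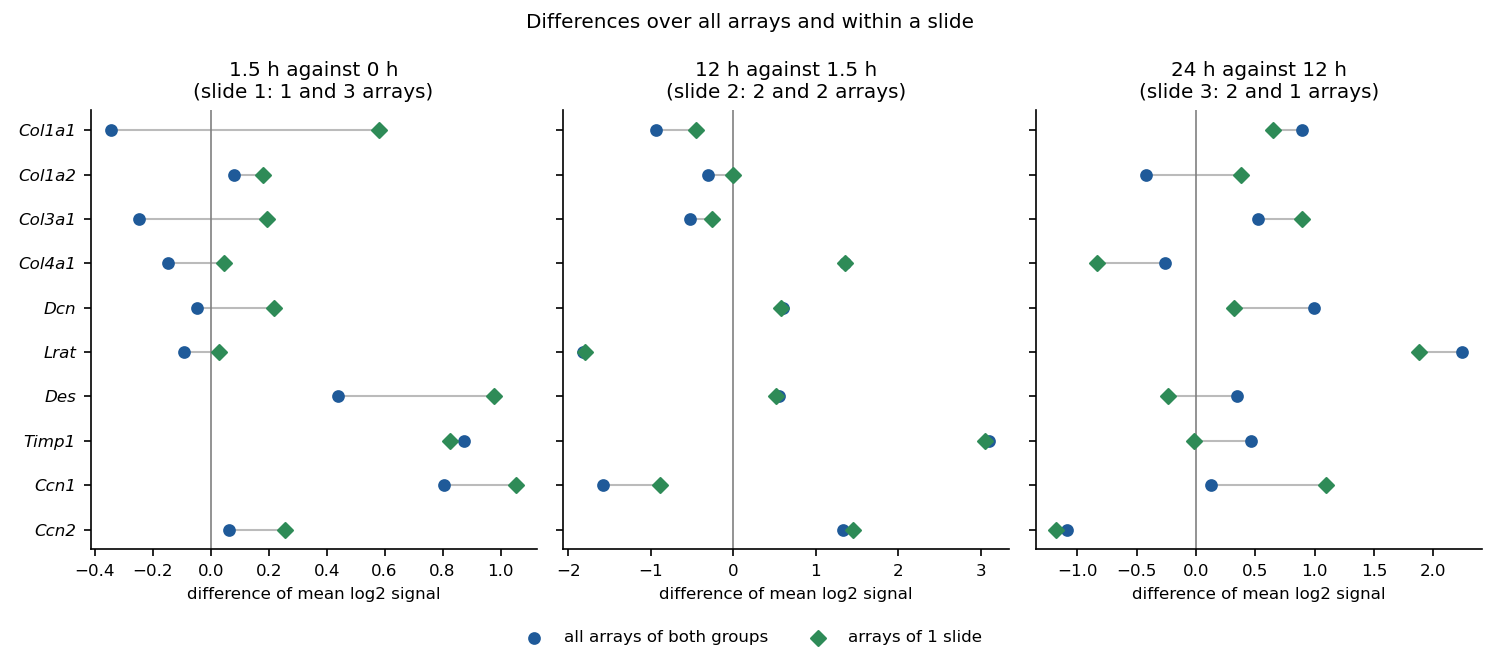
Difference of mean log2 signal (horizontal axes) over all arrays of both groups (blue circles) and over the arrays of 1 slide (green diamonds), for each gene and for the 3 comparisons that a slide allows. For 12 h against 1.5 h on slide 2, Timp1 (3.06), Col4a1 (1.36), Ccn2 (1.45) and Lrat (-1.80) lay close to their pooled differences, and Col1a1, Col3a1, Col4a1, Dcn and Lrat changed sign for 1.5 h against 0 h on slide 1.

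Within a slide, 12 h against 1.5 h could be compared on 2 arrays each. These are 4 of the 6 arrays of that comparison, so the values on slide 2 are not independent of the pooled ones. For 1.5 h against 0 h, slide 1 holds 1 array against 3, and Col1a1 was 0.58 higher at 1.5 h there, while its pooled difference was -0.34. No slide holds 0 h arrays beside 12 or 24 h arrays, so those comparisons have no value within a slide. With the slide as a fixed block they rest, for every gene, on 1.5 h replicate 1 as the only array beside the 0 h arrays.

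Beside the counts of the further lists against 0 h stand the shares of all probes called, which were 15.3% for 12 h (49% without 24 h replicate 2) and 5.45% for 24 h (17% without it). Each gene named below as past the threshold also passed without that array, which has no part in a fold between 12 and 0 h. The 0 h means of Hgf (-4.33), Lox (-4.24), Aldh1a3 (-4.65), Msln (-4.44) and Tnf (-4.25) lay near the lowest signals called well above background on the 0 h arrays (-4.53 to -5.16). The 12 h mean of Col5a1 (-5.00) was also low. Each of these genes was well above background on 11 of 12 arrays, so their folds are less certain. Of 24 further stellate cell genes, 3 rose and 2 fell at 12 h against 0 h, and 1 rose at 24 h. Hgf, the hepatocyte mitogen, rose 5.73-fold at 12 h (log2 2.52 ± 0.30, adjusted p = 0.000543) and 6.78-fold at 24 h (2.76 ± 0.30, adjusted p = 0.000862). Plin2, a lipid droplet coat protein that hepatocytes also make, rose 7.64-fold at 12 h, and Pdgfra, a receptor for platelet-derived growth factor, 2.41-fold. Pparg, the lipogenic nuclear receptor, fell by 0.87 on the log2 scale. In the fit without 24 h replicate 2, 6 rose and 8 fell at 12 h, and 4 rose and 1 fell at 24 h. The median of the 24 was -0.16 at 12 h and 0.01 at 24 h against 0 h. Lhx2, a transcription factor of quiescent stellate cells, was 2.50-fold higher at 24 h than at 12 h (adjusted p = 0.0183). Acta2, the actin of activated stellate cells and smooth muscle, had no 0 h array well above background and did not pass at 1.5 h (adjusted p = 0.775). Its 1.5 h arrays all lay above the 0 h arrays, but it was well above background on only 5 of 12 arrays. Its values at 12 and 24 h are not reported here.

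Among 25 tested genes of other collagens and of collagen processing, 2 rose and 3 fell at 12 h, and 7 rose and 8 fell without 24 h replicate 2. At 24 h, 3 rose and none fell, and 7 rose and 1 fell without that array. Lox, which cross-links collagen, rose 3.55-fold at 12 h and 3.21-fold at 24 h (adjusted p = 0.00173 and 0.00755). P3h1, a collagen prolyl hydroxylase, rose 3.26-fold at 12 h and 2.19-fold at 24 h. Col5a1 and Col5a3, chains of collagen V that is built into fibrils of collagen I, were 6.81-fold and 8.27-fold lower at 12 h (adjusted p = 0.00204 and 0.0111), and Col5a1 was 3.44-fold higher at 24 h than at 12 h. Pcolce2, an enhancer of procollagen cleavage, rose 2.37-fold at 24 h. Of 20 basement membrane genes none rose and 4 fell at 12 h, with a median of -0.42: Lama1 (4.55-fold), Col18a1 (3.18-fold), Agrn (2.93-fold) and Nid2 (2.55-fold). Col4a1 and these 4 genes went opposite ways at 12 h. 2 of the 20 rose and 6 fell at 12 h without 24 h replicate 2. At 24 h against 0 h none rose and 1 fell, with or without that array. At 12 h against 1.5 h, 1 of the 20 was higher, Nid1 (3.05-fold, adjusted p = 0.0390), and 3 were lower, beside 8.35% of all probes called. Nid1 thus moved as Col4a1 did in that comparison.

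Among 24 proteoglycans and matrix glycoproteins 3 rose and 1 fell at 12 h, and 6 rose and 3 fell without 24 h replicate 2. At 24 h, 2 rose and none fell, and 4 rose and 2 fell without that array. Fn1, plasma and matrix fibronectin, rose 2.21-fold at 12 h (adjusted p = 0.00916) and 2.27-fold at 24 h. The large proteoglycan Vcan, well above background on none of the 0 h arrays and on 2 of the 3 at 12 h, was at least 2.25-fold higher at 24 h, and the microfibril gene Fbn2 at least 13.7-fold higher at 12 h. Thbs2 fell 2.37-fold at 12 h. Of 24 matrix proteases and inhibitors beside Timp1, 8 rose and 1 fell at 12 h, and 4 rose and 1 fell at 24 h. Without 24 h replicate 2 these were 10 and 5 at 12 h, and 6 and 2 at 24 h. The collagenase Mmp8 was at least 3.61-fold and the stromelysin Mmp3 at least 3.59-fold higher at 12 h, and Mmp15, a membrane-type metalloproteinase, was 8.57-fold lower. Mmp8 is also a granule gene of neutrophils.

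Of 27 further CCN family members and genes linked to YAP and SRF, 1 rose and 2 fell at 12 h, and none rose and 1 fell at 24 h. The fit without 24 h replicate 2 called 5 higher and 5 lower at 12 h, and 3 lower at 24 h. Actg1, a cytoplasmic actin under SRF control, rose 6.44-fold at 12 h (adjusted p = 0.000696) and was 4.06-fold lower at 24 h than at 12 h. Its 24 h mean had no value from 24 h replicate 2. Leaving that array out therefore did not change this last difference (log2 -2.02 in both fits). Ccn6 was at least 2.95-fold lower at 12 h, and Amotl2, an angiomotin that YAP induces, fell 2.28-fold. The median of this list was -0.03 at 12 h and 0.21 at 24 h. Of 25 signals and receptors that act on stellate cells, 6 rose and 2 fell at 12 h, and 8 rose and 5 fell without 24 h replicate 2. The receptor Osmr rose 6.89-fold and its ligand Osm, a cytokine made by immune cells, was also called higher, with 2 of the 3 arrays at 12 h and none at 0 h well above background. Pdgfc rose 2.75-fold and Pdgfa fell 3.84-fold. At 24 h, 5 rose and 1 fell, and 7 rose and 2 fell without 24 h replicate 2. Il1b (3.16-fold) and Tnf (2.86-fold) were among those that rose.

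Of 21 other genes of retinoid storage and use, 1 rose and 5 fell at 12 h and 2 fell at 24 h, with list medians of -0.60 and -0.34. Without 24 h replicate 2, 4 rose and 7 fell at 12 h and 4 fell at 24 h. Cyp26a1, which breaks down retinoic acid, fell 9.51-fold at 12 h (adjusted p = 0.000328) and 3.76-fold at 24 h. Ttr, a plasma protein that carries retinol with its binding protein, was 3.83-fold lower at 12 h and 3.84-fold lower at 24 h. Rdh11, a retinal reductase, fell 3.37-fold, and Aldh1a3, which makes retinoic acid, rose 6.49-fold. At 24 h against 12 h, 2 of the 21 were higher and 2 lower, beside 12.8% of all probes called. Without 24 h replicate 2 these were 3 higher and 2 lower, beside 15.8%. Cyp26a1 and Rdh11 were higher (2.53-fold and 2.50-fold), as Lrat was, and Aldh1a3 and Pnpla2 were lower (3.23-fold and 3.29-fold). Pnpla2 was well above background on 9 of 12 arrays. Ttr and Cyp26a1 are expressed mainly in hepatocytes.

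**Figure D4:**
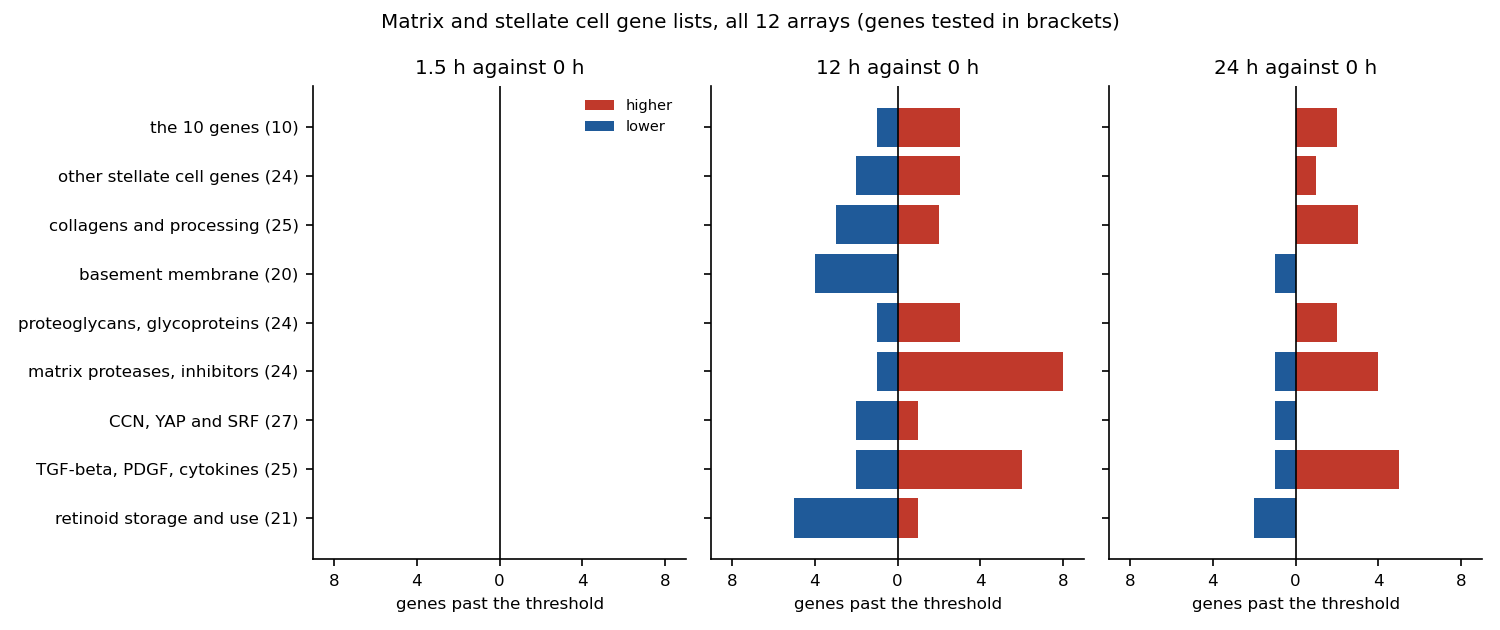
Number of genes past the threshold (horizontal axes, higher to the right and lower to the left of 0) in the 10 genes and in 8 further lists at 1.5, 12 and 24 h against 0 h, all 12 arrays. No gene of these lists passed at 1.5 h, and the protease and inhibitor list had 8 higher at 12 h.

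Marker lists of other cell types were counted in the same way. For neutrophils, 2 of 9 markers rose at 1.5 h, 6 at 12 h and 5 at 24 h, and the mean log2 level of the list ranged from -3.65 to -3.24 at 0 h, with a median of -2.02 over the arrays at 1.5 h, from -0.76 to -0.02 at 12 h, and from -1.34 to -0.98 at 24 h. For adipose tissue, 5 of 7 rose at 12 h and 3 at 24 h, with levels of -4.75 to -4.47 at 0 h, -3.75 to -3.18 at 1.5 h, -2.47 to -1.58 at 12 h and -2.72 to -2.11 at 24 h. Mmp8 (neutrophil), Plin1 and Cfd (adipose), Actg2 (smooth muscle) and Wt1 (mesothelium) had no 0 h array well above background. They passed the filter only through later time points, so their calls as higher are no independent sign of a rise. The 0 h means of Mmp8 (-6.99), Plin1 (-6.75) and Cfd (-6.09) lay below the lowest signals called well above background there (-4.53 to -5.16). The 0 h levels of the neutrophil and adipose lists include these means. For portal fibroblasts and mesothelium, 1 of 11 rose and 1 fell at 12 h, and 2 rose at 24 h, with levels of -2.60 to -2.24 at 0 h, -1.91 to -1.63 at 1.5 h, -2.16 to -1.99 at 12 h and -2.25 to -1.56 at 24 h. The mesothelial gene Msln rose 6.66-fold at 12 h and 9.04-fold at 24 h, and Thy1, a marker of portal fibroblasts, fell 2.14-fold at 12 h. For smooth muscle, 1 of 8 rose and 1 fell at 12 h and none passed at 24 h, and Cnn1 was well above background on no array. For endothelium, which also makes collagen IV, 1 of 13 rose and 2 fell at 12 h and 1 rose at 24 h, with levels of 0.72 to 0.99 at 12 h, against 1.00 to 1.16 at 0 h. For macrophages 1 of 10 rose and 2 fell at 12 h and 1 rose at 24 h, for bile duct 1 of 6 rose at both times, for lymphocytes 2 of 8 fell at 12 h, and for hepatocytes 1 of 11 rose and 1 fell at 12 h and 1 fell at 24 h. No erythroid marker of 6 passed. Leaving out 24 h replicate 2 gave at 12 h 7 higher for neutrophils, 5 higher for adipose tissue, 4 higher and 3 lower for portal fibroblasts and mesothelium, 3 higher and 1 lower for smooth muscle, and 1 higher and 4 lower each for endothelium and macrophages. It gave 1 higher and 2 lower for lymphocytes, 2 higher for bile duct, and 2 higher and 1 lower each for hepatocytes and erythroid cells. At 24 h the fit without that array called 5 higher for neutrophils, 4 for adipose tissue and 3 for endothelium. It called 4 higher and 1 lower for portal fibroblasts and mesothelium, and 2 higher and 2 lower for smooth muscle. It called 1 higher for macrophages, 2 for bile duct and 1 for erythroid cells, 1 lower for lymphocytes, and 1 each way for hepatocytes. The part of these cells in the changes of Timp1, Dcn, Col4a1 and the other genes was not tested.

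**Figure D5:**
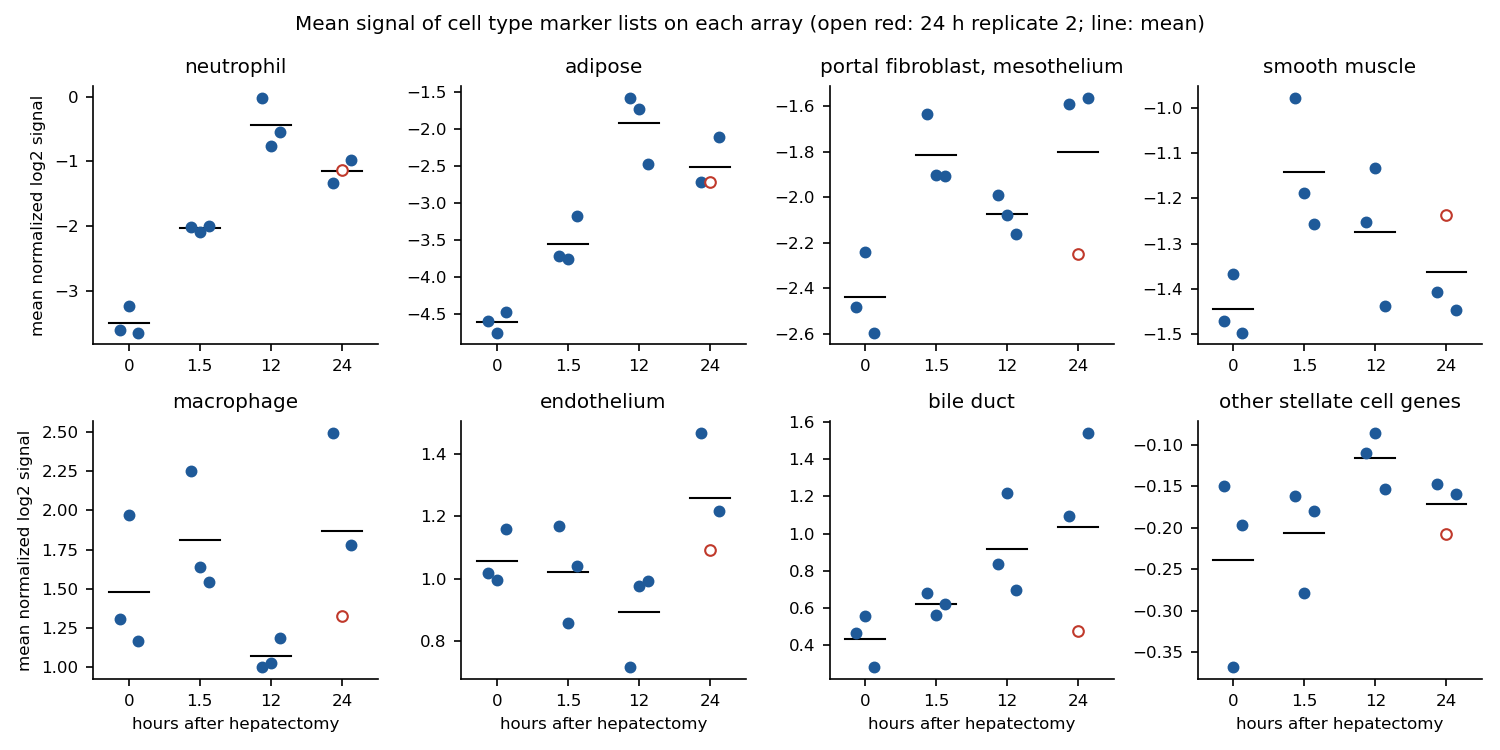
Mean normalized log2 signal (vertical axes, each with its own range) of 7 marker lists of other cell types and of the 24 further stellate cell genes on each array, by hours after hepatectomy. Points are arrays, lines are means, and the open red point is 24 h replicate 2. The neutrophil and adipose lists lay higher at 12 and 24 h than at 0 h on every array, while the stellate list stayed between -0.37 and -0.08. Both the neutrophil and the adipose list hold genes with no 0 h array well above background.

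The genes whose course over the arrays was most like each pattern were ranked by Pearson's r among 16686 named genes, as a description over arrays that share 4 time points and 4 slides. For Timp1 they were Sdsl (r = 0.989), Fga, Ctsj, Cxcl1 and Chst11 (r = 0.980 for the fifth) over 12 arrays, and Crybb3 (r = 0.995), Sdsl, Lcn2, Itgb1bp1 and Orm1 over the 11 arrays without 24 h replicate 2. For Ccn2 they were Sgms1 (r = 0.955), Rrp1b, Nip7, D10Wsu102e and Sntb2, and without that array Sgms1 (r = 0.968), Hif1a, Rlim, Eloc and Id3. For the mean of the standardised values of Col1a1, Col1a2 and Col3a1 they were Pkp3 (r = 0.931), the haemoglobin genes Hbb-b2 and Hbb-bt, Abhd11os and Adrb3. Without 24 h replicate 2 they were Pkp3 (r = 0.928), Bicral, Col5a1, Zfhx4 and Klhl5. For Ccn1 they included Dgka (r = 0.889), Ing3, Kif23 and Zfp775, and without that array Pclo (r = 0.914), Ing3, Dgka, Plxdc1 and Fhl2. Of the 5 genes in each ranking, 1 was shared between both sets of arrays for Timp1, for Ccn2 and for the collagens, and 2 for Ccn1.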

How the data were processed

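RNA of 12 liver samples was hybridised, with 1 dye (Cy3), to Agilent arrays that carry probes for long noncoding and messenger RNAs. The deposited files are scanner output: per the file headers they hold for each spot a processed signal intensity on a linear scale, background-subtracted within the array, and quality marks. Per the submitters' processing notes the software was Agilent Feature Extraction 10.5.1.1. The authors also deposited log2 values, whose column medians lie between 8.91 and 8.94; how these were normalized, centred and filtered is not given in the sources used here, and they served as an alternative. Array position comes from the file headers, and the slide was inferred from the scan date given there.

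Control spots and spots marked as outliers were dropped, spots of a probe were averaged, and log2 of the processed signal was taken minus the array's 75th percentile. Of 37246 probes, the 31168 called well above background on at least 3 arrays were kept. Symbols came from a RefSeq gene table by accession (22216 probes had one). A gene is read from its brightest kept probe. limma 3.58.1 in R 4.3.3 fitted 1 mean per time point to all 12 arrays with empirical Bayes moderation. Tests were two-sided, adjusted by Benjamini-Hochberg over 31168 probes in each of 5 comparisons. The fit was also run on simulated data with independent normal noise on each array. Those data had no likeness within slides and no outlying array, so that run does not cover these features. The p-values rest on the spread among arrays within groups, which may be technical. A group with no array well above background gives a bound ("at least"), taken against the lowest signal called well above background on each array. This bound rests on the main values and carries no error. It is not strict, since an uncalled probe can lie above that lowest signal, as Des did on 12 h replicate 3 (-3.88 against -4.32). No spot was saturated, and 3 arrays per time point limit the precision.

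The 10 genes, the further lists and the tests were chosen with earlier results of these data known. From each further list and comparison, the text names up to 4 genes past the threshold whose groups did not overlap, by adjusted p (or the 1 with the smallest where none passed). Alternatives were normexp (offset 50, on the median spot signal), quantile normalization, the authors' values, no filter or a stricter filter, the mean of a gene's probes, robust moderation with a trend, array weights, a block for the replicate number or for the slide, a fit of the compared groups alone, and omission of each array in turn. Leaving out 1.5 h replicate 1 and 24 h replicate 2 together was added after seeing the data. Probe coordinates and noncoding transcripts were not analysed here. Some genes that the naming rule selects are not reported here.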

Additional observations from a re-analysis of the deposited data

How the results depend on the processing

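Timp1 at 12 and 24 h against 0 h and at 12 h against 1.5 h passed in all 25 alternatives, and its direction was the same in each. The other calls among the 10 genes were each lost in at least 4 of 25 alternatives. 3 differences reversed: Col1a1 at 12 h against 0 h with the slide as a fixed block (0.13), Des at 24 h against 0 h under normexp background correction (-0.13) and Ccn1 at 12 h against 1.5 h under normexp (0.40). With the slide as a fixed block, 12 h is linked to 0 h through 1.5 h replicate 1, the highest array for Col1a1. The cause of the reversals under normexp was not tested. Depth is not known for arrays. Des and, on 1 array, Ccn1 were not well above background, and 3 arrays a group limit all tests.

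Counts moved most with the array settings. At 1.5 h against 0 h, 7 probes passed with all arrays, 4 under normexp, 20 with the authors' values, 17 with the stricter filter, 15 with robust moderation, 24 and 65 with the slide as a fixed and random block, 12889 with array weights and 0 with only the 2 groups fitted. Of the 10 genes, 3 passed with array weights (Timp1, Col1a1 and Col3a1) and 2 without 1.5 h replicate 1 and 24 h replicate 2 together (Timp1 and Col1a1), when 7740 probes passed. Array weights put 0.0407 on 24 h replicate 2 and 0.331 on 1.5 h replicate 1, against 0.467 to 2.90 on the others.

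At 12 h against 0 h, 4774 probes and 4 of the 10 genes passed. These were 1004 and 1 under normexp, 19761 and 7 with array weights, 1301 and 1 with the slide as a fixed block, 2647 probes with it as a random block, 15491 and 7 with only the 2 groups fitted, and 17404 and 7 without both of those arrays. At 24 h against 0 h, 1698 probes and 2 genes passed: 239 and 1 under normexp, 8540 probes with array weights, 83 and 1 with the slide fixed, 288 and 1 with it random, 119 and 1 with only the 2 groups, and 6967 probes without both arrays.

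At 12 h against 1.5 h, 2601 probes and 4 genes passed: 647 and 1 under normexp, 7642 probes with array weights, 4703 and 5593 with the slide fixed and random, and 5113 without both arrays. At 24 h against 12 h, 3986 probes and 2 genes passed: 224 and 0 under normexp, 2584 and 1 with no filter, 12392 and 5 with array weights, no gene with the slide fixed, 0 and 0 with only the 2 groups, and 8395 probes without both arrays.

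Leaving out single arrays gave 0 to 177 probes at 1.5 h, 2256 to 15269 at 12 h and 415 to 5302 at 24 h against 0 h, 1255 to 6281 at 12 h against 1.5 h and 397 to 10647 at 24 h against 12 h. For the 10 genes the counts were 0, 1 to 7, 1 to 3, 1 to 5 and 0 to 2 in the same order. Without 24 h replicate 2 they were 0, 7, 3, 5 and 2.

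Replicate numbers did not pair the samples: 18 same-number pairs correlated at -0.423 to 0.413 in their deviations, 2 of them over 0.1. With the replicate number as a block, 0, 3607, 1161, 1927 and 1277 probes passed in the same order, and 0, 3, 1, 2 and 1 of the 10 genes. With the slide as a random block the correlation within slides was 0.854.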
